A study of Homo sapiens with 6 samples.

Results

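The aminoacyl-tRNA synthetases are the enzymes that join each amino acid to its tRNA, and 36 of their genes were followed in the liver cancer cell line Hep3B, out of 29908 genes with a deposited value. A gene was included if its Ensembl identifier carries 1 of 36 synthetase symbols in GENCODE release 29, which gave 20 cytosolic and 16 mitochondrial enzymes. The rule itself uses no measured level. Hep3B is an established hepatocellular carcinoma line. In Hep3B-KD a lentivirus delivered a short hairpin RNA aimed at DAGLA, which encodes diacylglycerol lipase alpha, an enzyme that releases the endocannabinoid 2-AG. Hep3B-Con cells carried the control lentivirus, which the sample titles call shControl and the design text calls an empty vector. Both were infected at a multiplicity of infection of 5 and selected with puromycin, and each group had 3 libraries, described in the design text as biological replicates. A single hairpin sequence was used, so effects of DAGLA loss and of that hairpin cannot be told apart. The sample records name DMEM as the medium of Hep3B cells, whereas the methods of the study name MEM-alpha.

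A synthetase first activates its amino acid with ATP and then transfers it to the matching tRNA. Human cells keep separate enzymes for the cytosol and, usually marked by the suffix 2, for the mitochondrion, all of them encoded in the nucleus. GARS and KARS serve both compartments from 1 gene. Several cytosolic enzymes sit together in the multisynthetase complex (EPRS, LARS, MARS, IARS, QARS, KARS, RARS and DARS, held by scaffold proteins of the AIMP family), and the catalytic domains of synthetases fall into class I or class II by their fold. EPRS joins a class I and a class II domain in 1 protein and is counted here under class I. Many cytosolic synthetase genes are known targets of ATF4, the transcription factor of the integrated stress response, which also drives genes of amino acid synthesis and import. ATF4 binds the C/EBP-ATF composite element, whose core can be written TGATGNAA.

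DAGLA was measured at 9.42, 9.40 and 9.02 FPKM (reads scaled to exon length and library size) in Hep3B-Con and at 4.62, 4.46 and 4.78 FPKM in Hep3B-KD, so the targeted gene was lower in every knockdown library. Reads assigned to genes, recovered from the FPKM values, numbered between 15861039 and 17572714 per library. Genes were compared on log2(FPKM + 0.1), and log2 fold changes below are on that scale, negative where Hep3B-KD was the lower group. A gene is said to have fallen or risen where the adjusted p from limma was under 0.05 over all 14221 genes tested. By that rule 23.8% of all genes fell and 36.1% rose, so 59.9% were called in all, and log2 fold changes over all genes had a median of 0.11. The 12 hepatocyte markers summed to between 2840 and 2886 FPKM in Hep3B-Con and between 4632 and 4660 FPKM in Hep3B-KD. Most of that sum is ALB, at a mean of 2042 FPKM in Hep3B-Con and 3315 FPKM in Hep3B-KD. The markers did not move together, as 8 rose, 3 fell and 1 did not pass. Those that fell were FGA (log2 fold change -1.23), FGB (-0.96) and HNF4A (-0.35). The sums of 5 fibroblast markers were 9.14 to 10.1 and 5.38 to 5.91 FPKM, with COL3A1 and DCN near 0, while 1 leukocyte marker and 3 endothelial markers summed to under 0.4 FPKM in each library. Whether fewer cells held a transcript or each cell held less of it cannot be told apart in bulk RNA.

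The promoters of 8 synthetase genes hold the letters TGATGNAA, read on either strand, in the RefSeq window from 250 bases before to 50 bases after the transcript start (GRCh38.p14). They are shown because many cytosolic genes carry the element. All 8 of these genes fell in Hep3B-KD, where 23.8% of all genes fell, but so did all 9 cytosolic genes whose window lacks the letters. The matched letters are in capitals, and each line runs along the strand of its gene from 5′ to 3′. TTGCATCA and TTTCATCA are the same element read on the opposite strand.
AARS: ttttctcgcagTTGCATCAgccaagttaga
CARS: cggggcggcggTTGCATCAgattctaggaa
GARS: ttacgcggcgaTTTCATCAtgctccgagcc
IARS: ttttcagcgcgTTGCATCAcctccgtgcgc
MARS: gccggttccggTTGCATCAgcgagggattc
NARS: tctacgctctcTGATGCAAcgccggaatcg
TARS: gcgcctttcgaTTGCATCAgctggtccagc
YARS2: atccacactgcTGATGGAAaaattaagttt

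These stretches lie at chr16:70289675-70289704 on the minus strand for AARS, at chr11:3057407-3057436 (minus) for CARS, and at chr7:30594834-30594863 (plus) for GARS. Those of IARS and MARS lie at chr9:92293692-92293721 (minus) and at chr12:57488053-57488082 (plus). NARS holds its match at chr18:57621804-57621833 (minus), TARS at chr5:33440956-33440985 (plus) and the mitochondrial YARS2 at chr12:32756076-32756105 (minus). Counted from the RefSeq transcript start with no position 0, bases before it being negative, the match began at -187 in AARS and at -197 in YARS2. In the other 6 genes it lay close to the start, between -33 (GARS) and 15 (NARS).

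By count, 7 of the 16 cytosolic genes with a window held the element (43.8%), against 1 of 14 mitochondrial genes (7.14%). Among the genes tested that have a window, 265 of 9729 did (2.72%), and 1217 of 27305 among all symbols with a window (4.46%). The form TGATGCAA, which was looked at after the matches had been seen, stood in 6 of the 7 cytosolic genes, all but GARS, and in 74 of 9729 genes tested (0.761%). DARS, LARS, VARS, YARS, AARS2 and VARS2 had no window. The 7 cytosolic genes with the element had a median log2 fold change of -0.42 (range -0.79 to -0.16), and the 9 cytosolic genes whose window lacks these letters had a median of -0.22 (range -0.87 to -0.09). The ranges overlap widely, and WARS, the enzyme with the largest fall, is among the genes without a match in this window. A match is a run of letters, and binding was not measured here.

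The cytosolic enzymes fell nearly as a class. Of the 20 genes, all of them tested, 19 fell, none rose and DARS did not pass, where 23.8% of all genes fell and 36.1% rose. In 19 of the 20 each knockdown library was under each control library, which was so for 26.3% of all genes. The median log2 fold change was -0.35 against 0.11 over all genes, and the range was -0.87 to -0.01. None reached a fold change of 2, which 2.94% of all genes passed in the lower direction and 5.89% in the higher. Summed over the 20 genes, the level was 1044 ± 0.696 FPKM in Hep3B-Con and 791.7 ± 5.59 FPKM in Hep3B-KD (SD, n = 3 each).

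WARS, which charges tRNA with tryptophan, had the largest fall of all 36 genes. It was at 20.9, 21.7 and 21.2 FPKM in Hep3B-Con and at 11.6, 11.6 and 11.7 FPKM in Hep3B-KD (log2 fold change -0.87, standard error 0.0272, limma's adjusted p = 1.39e-06). The groups lay far apart for their small spread. WARS shares 10.6% of its exon bases with AL157871.4 and WDR25 on the opposite strand.

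GARS, the glycine enzyme of both compartments and the most abundant synthetase mRNA in Hep3B-Con, was at 161, 153 and 149.9 FPKM in Hep3B-Con. In Hep3B-KD it was at 89.2, 90.3 and 88.2 FPKM. The log2 fold change was -0.79 (standard error 0.0289), and GARS fell by 42.3% from its control mean. In Hep3B-KD its values lay within the range of those of AARS, the alanine enzyme, at 92.4, 86.6 and 89.4 FPKM, although AARS had been well below it in Hep3B-Con at 113.9, 115.3 and 115.2 FPKM.

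YARS, the tyrosine enzyme, was at 28.5, 28.9 and 28.6 FPKM in Hep3B-Con and at 17.4, 16.9 and 18.2 FPKM in Hep3B-KD (log2 fold change -0.71, standard error 0.0336). VARS, the valine enzyme, was at 114.5, 111.5 and 113.5 FPKM and then at 76.0, 74.1 and 74.8 FPKM (log2 fold change -0.59, standard error 0.0191). CARS, the cysteine enzyme, was at 12.5, 13.02 and 13.3 FPKM and then at 8.65, 8.57 and 9.04 FPKM (log2 fold change -0.56, standard error 0.0386). In all 3 genes the groups were separated by more than the spread within either of them.

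MARS, the methionine enzyme, was at 57.1, 57.9 and 57.8 FPKM in Hep3B-Con and at 43.3, 41.1 and 43.1 FPKM in Hep3B-KD (log2 fold change -0.44). Its exons share 13.3% of their bases with ARHGAP9, DDIT3 and MIR6758, the first 2 on the opposite strand, and the counting is not known to have used strand. FARSA, the catalytic subunit of the phenylalanine enzyme, was at 57.6, 53.7 and 58.4 FPKM and then at 43.0, 41.6 and 41.8 FPKM (-0.42). IARS, the isoleucine enzyme, was at 54.0, 56.2 and 55.5 FPKM and then at 42.2, 41.1 and 40.8 FPKM (-0.42). AARS, HARS and NARS, the alanine, histidine and asparagine enzymes, fell with log2 fold changes of -0.36, -0.36 and -0.34.

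Changes were smaller in the remaining cytosolic genes. Their log2 fold changes were -0.28 in SARS (serine), -0.22 in EPRS (glutamate and proline), -0.19 in RARS (arginine), -0.17 in LARS (leucine) and -0.16 in TARS (threonine). FARSB, the other subunit of the phenylalanine enzyme, was at -0.14, KARS (lysine) at -0.11 and QARS (glutamine) at -0.09, and these 8 genes all passed the test. The subunits of the phenylalanine enzyme moved by different amounts, since FARSA fell by 25.5% of its control mean and FARSB fell by 9.61%. DARS, the aspartate enzyme, was at 22.0, 21.4 and 20.2 FPKM in Hep3B-Con and at 20.2, 20.6 and 22.3 FPKM in Hep3B-KD, so its groups overlapped (log2 fold change -0.01, limma's adjusted p = 0.867). With voom it passed at -0.11 (adjusted p = 0.0360). The smallest of the calls depended on the processing. QARS missed the threshold in 9 of the 16 alternatives and RARS in 8, TARS and KARS in 1 each (quantile normalization), whereas the calls of the other 15 cytosolic genes were kept in every one.

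The multisynthetase complex was described apart from the remaining cytosolic enzymes. Of the 8 complex enzymes 7 fell, with a median log2 fold change of -0.18 and a range of -0.44 (MARS) to -0.01 (DARS). All 12 cytosolic enzymes outside the complex fell, with a median of -0.39 and a range of -0.87 (WARS) to -0.14 (FARSB). The ranges overlap, and the difference between the sets was not tested. By catalytic class, 10 of 10 cytosolic class I genes fell (median -0.43) and 9 of 10 class II genes (median -0.31). All these counts stand beside 23.8% of all genes that fell. The calls of QARS, RARS and KARS in the complex, and of TARS outside it, were lost in some alternatives.

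The mitochondrial enzymes moved in both directions. Of the 16 genes 15 passed the filter on low values, and of these 7 fell, 2 rose and 6 did not pass, where 23.8% of all genes fell and 36.1% rose. The median log2 fold change was -0.11 and the range -0.57 to 0.25, and no gene reached a fold change of 2. The sum of all 16 levels was 213.4 ± 1.55 FPKM in Hep3B-Con and 196.7 ± 1.24 FPKM in Hep3B-KD (SD, n = 3 each). SARS2 was left out of the test at 0.247, 0.392 and 0.242 FPKM in Hep3B-Con and 0.429, 0.289 and 0.373 FPKM in Hep3B-KD, from 13 to 22 reads per library, and 57.0% of its exon bases are shared with AC011455.2 and MRPS12.

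LARS2, the mitochondrial leucine enzyme, had the largest fall of its class. It was at 7.60, 7.08 and 6.84 FPKM in Hep3B-Con and at 4.30, 4.91 and 5.22 FPKM in Hep3B-KD (log2 fold change -0.57, standard error 0.0801, limma's adjusted p = 0.000883). VARS2, the valine enzyme, was at 7.36, 7.63 and 7.11 FPKM and then at 5.57, 5.67 and 5.80 FPKM (log2 fold change -0.37). In both genes every knockdown value lay under every control value. VARS2 shares 22.0% of its exon bases with GTF2H4 on the same strand, so some of its reads are uncertain.

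EARS2, the glutamate enzyme, was at 13.7, 14.1 and 14.3 FPKM in Hep3B-Con and at 11.4, 10.9 and 11.2 FPKM in Hep3B-KD (log2 fold change -0.33). YARS2, the tyrosine enzyme and the 1 mitochondrial gene with the element in its window, was at 22.1, 21.1 and 21.5 FPKM and then at 17.6, 17.2 and 17.0 FPKM (-0.32). MARS2, the methionine enzyme, was at 19.6, 19.3 and 18.0 FPKM and then at 14.95, 15.4 and 15.5 FPKM (-0.31). The groups did not overlap in any of these genes. CARS2 fell by 0.14 and IARS2 by 0.11, but IARS2 is the most abundant mitochondrial enzyme and its call was lost, at 0.02, under quantile normalization, while CARS2 missed the threshold in 8 of the 16 alternatives.

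HARS2 and TARS2 went the other way. HARS2, the mitochondrial histidine enzyme, was at 7.33, 7.51 and 7.78 FPKM in Hep3B-Con and at 8.61, 8.98 and 9.32 FPKM in Hep3B-KD (log2 fold change 0.25, standard error 0.0449, limma's adjusted p = 0.00299). TARS2, the threonine enzyme, was at 13.8, 15.3 and 13.6 FPKM and then at 16.1, 15.7 and 16.8 FPKM (log2 fold change 0.18, limma's adjusted p = 0.0220). All knockdown values lay above all control values in both, as in 40.7% of all genes. The call of HARS2 was kept in all 16 alternatives. That of TARS2 was lost in 7 of them, with the replicate number as a block (limma's adjusted p = 0.0593), when each library was centred on its median log ratio (0.08, limma's adjusted p = 0.235), with voom on the recovered reads (0.08, adjusted p = 0.173), and without replicates 1 or 3 of Hep3B-Con or replicates 1 or 3 of Hep3B-KD, when the adjusted p ran from 0.0534 to 0.0714.

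The 6 mitochondrial genes that did not pass were AARS2 (log2 fold change -0.06), FARS2 (-0.01), NARS2 (-0.11), PARS2 (0.20), RARS2 (0.06) and WARS2 (-0.04). NARS2 passed with median centring (-0.21), quantile normalization (-0.23) and voom on the recovered reads (-0.22), and AARS2 passed with voom (-0.17). PARS2, the proline enzyme, was the lowest of the genes tested, with 98 to 142 reads per library, and at 3.44, 2.40 and 2.99 FPKM in Hep3B-Con and 3.52, 3.05 and 3.54 FPKM in Hep3B-KD its groups overlapped. The falls all lay in class I, where 7 of 9 mitochondrial genes fell with a median of -0.31, beside 23.8% of all genes that fell. In class II none of the 6 genes tested fell and 2 rose, with a median of 0.09, beside 36.1% of all genes that rose and a median of 0.11. This split by class was noticed in these data and was not tested. It depends on the processing, since NARS2 and AARS2, which passed as lower in some alternatives, are of class II. The calls of CARS2 and IARS2, of class I, were lost in some. The most abundant mitochondrial genes, IARS2, YARS2, RARS2 and MARS2, are all of class I, so class and level are not separated here.

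Each cytosolic enzyme was set against the mitochondrial enzyme of the same amino acid by the log2 ratio of their levels in every library. There were 17 such pairs, with EPRS entering for both glutamate and proline and FARS2 set against both phenylalanine subunits, and in 16 pairs both genes were tested. The ratio was lower in Hep3B-KD in 14 of the 16 and higher in 2, with a median change of -0.30. Under quantile normalization 11 ratios were lower in place of 14. In 13 pairs all knockdown ratios lay below all control ratios, in 2 pairs above them, and in FARSB/FARS2 they overlapped. Among single genes the knockdown values lay all below in 26.3% and all above in 40.7%. Such a share for ratios of other gene pairs is not given here. For a pair without overlap the two-sided exact permutation test gave p = 0.1, which is as low as 3 against 3 can go, so no single pair can pass 0.05. The ratio of the class sums was 4.89 ± 0.0323 in Hep3B-Con and 4.03 ± 0.0440 in Hep3B-KD (SD, n = 3 each). GARS and KARS, which serve both compartments, are counted in the cytosolic sum.

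The tryptophan pair changed most. The WARS/WARS2 log2 ratio was 2.19, 2.12 and 2.27 in Hep3B-Con and 1.59, 1.25 and 1.27 in Hep3B-KD, a change of -0.82, while WARS2 itself was at 4.497, 4.92 and 4.31 FPKM and then at 3.77, 4.82 and 4.78 FPKM. The groups overlapped in WARS2 and lay apart in WARS.

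The histidine pair changed its order by FPKM. HARS was at 8.61, 8.82 and 9.41 FPKM in Hep3B-Con and at 6.46, 6.81 and 7.57 FPKM in Hep3B-KD, whereas HARS2 rose as given above. The log2 ratio was 0.23, 0.23 and 0.27 in Hep3B-Con and -0.41, -0.39 and -0.30 in Hep3B-KD. By FPKM the cytosolic mRNA was thus the higher of the pair in every control library and the lower in every knockdown library. FPKM divides by exon length, here 7853 bases for HARS and 3736 for HARS2. By reads HARS was the higher in all libraries, at 805 to 1230 against 481 to 578. The order therefore depends on that length, whereas the change of the ratio does not. The genes lie head to head on chromosome 5. The RefSeq start of HARS on the minus strand (140691370) and that of HARS2 on the plus strand (140691455) leave 84 bases between them in GRCh38.p14. All 84 lie in an annotated GENCODE exon, and 15.8% of the HARS2 exon bases and 8.38% of those of HARS are shared with neighbouring genes, so some reads near the starts may be counted for either.

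The leucine pair ran against the rest. LARS was at 15.9, 16.1 and 16.4 FPKM in Hep3B-Con and at 14.8, 14.1 and 14.0 FPKM in Hep3B-KD, and it lost a smaller share of its level than LARS2. The LARS/LARS2 log2 ratio was 1.06, 1.18 and 1.24 in Hep3B-Con and 1.76, 1.504 and 1.41 in Hep3B-KD, a change of 0.40. In EPRS/EARS2 the change was 0.11, from EPRS at 62.5, 62.8 and 64.96 FPKM in Hep3B-Con and 54.6, 54.5 and 54.2 FPKM in Hep3B-KD. In both pairs the mitochondrial enzyme had the larger fall.

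The share of genes that fell grew with their level, and cytosolic synthetases are more abundant than mitochondrial ones. Among all genes tested the median log2 fold change was 0.28 at 0.5 to 2 FPKM, where 8.22% fell, and -0.20 at 100 FPKM or more, where 63.2% fell. At 10 to 20 FPKM, where 34.0% of all genes fell with a median of 0.03, 3 of 3 cytosolic genes fell (median -0.56) and 3 of 5 mitochondrial genes (median -0.31). At 20 to 50 FPKM 43.9% of all genes fell, against 7 of 8 cytosolic genes (median -0.17, all genes -0.06) and none of 1 mitochondrial gene. At 50 to 100 FPKM 53.4% fell, against 6 of 6 cytosolic genes (median -0.31, all genes -0.11) and 1 of 1 mitochondrial gene. Within these ranges the cytosolic median was lower than that of all genes of like level, and no range holds enough genes of both classes for a comparison of the classes at equal level.

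**Figure D1:**
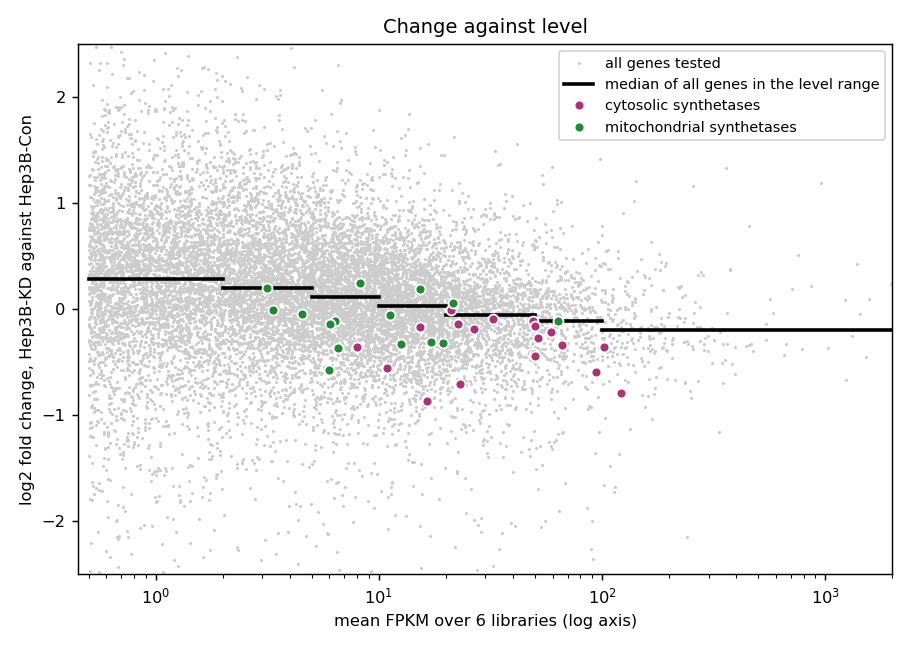
Log2 fold change against mean FPKM (log axis) for all genes tested, with the median of all genes in each range of level as black lines; 99 genes lie outside the axes. Cytosolic synthetases lie under the black line of their range, DARS apart, and the mitochondrial synthetases lie on both sides of theirs.

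Genes that work with the synthetases were looked at next. Of 14 partners and accessory enzymes 13 were tested, of which 4 fell, 3 rose and 6 did not pass, beside 23.8% and 36.1% of all genes. XPOT, which exports tRNA from the nucleus, was at 45.9, 47.0 and 46.8 FPKM in Hep3B-Con and at 31.0, 31.3 and 30.9 FPKM in Hep3B-KD (log2 fold change -0.58). DTD1, which removes D-amino acids from tRNA, was at 1.67, 1.56 and 1.51 FPKM and then at 1.14, 1.17 and 1.05 FPKM (-0.46), with no overlap of the groups. In the opposite direction moved both enzymes that turn serine on its tRNA into selenocysteine. PSTK was at 0.623, 0.480 and 0.570 FPKM in Hep3B-Con and at 1.10, 1.11 and 1.02 FPKM in Hep3B-KD (0.85), and SEPSECS was at 4.68, 4.89 and 4.96 FPKM and then at 7.76, 8.49 and 8.50 FPKM (0.76). Of the scaffold proteins of the complex, AIMP2 fell (-0.15), while AIMP1 (0.07) and EEF1E1 (0.00) did not pass.

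Of 6 elongation factors of the cytosol 5 were analysed, and all 5 fell, with a median log2 fold change of -0.45. EEF1D apart, they lie above 100 FPKM, where 63.2% of all genes fell. Their log2 fold changes were -0.66 in EEF1B2, -0.47 in EIF5A, -0.45 in EEF1A1, which delivers charged tRNA to the ribosome, and -0.37 in EEF2, which moves the ribosome along the mRNA. EEF1G was not analysed here. The 13 mitochondrial translation factors held 5 genes that fell, 3 that rose and 5 that did not pass, beside 23.8% and 36.1% of all genes, with a median of -0.04. GFM2 (-0.66) and MRRF (-0.48), which act in ribosome recycling, fell. MTIF3, an initiation factor, had a log2 fold change of 0.61 and MTRF1, a release factor, of 0.61, and both rose.

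ATF4 mRNA and most of the other ATF4 targets listed for this report were lower as well. ATF4 was at 210, 222 and 217 FPKM in Hep3B-Con and at 128, 132 and 127 FPKM in Hep3B-KD (log2 fold change -0.74). Of 24 genes in this list, ATF4 included, 23 were tested. Of these 20 fell, 1 rose and 2 did not pass, with a median of -0.80, beside 23.8% of all genes that fell. The list was chosen with earlier results of these data known, so its counts describe it and test nothing. Several genes of the list, ATF4 among them, lie above 100 FPKM, where 63.2% of all genes fell. PSPH rose (0.09), and DDIT3 (-0.10) and VLDLR (0.06) did not pass. ASNS, counted among the falls, went from a mean of 0.745 FPKM in Hep3B-Con to 0.338 FPKM in Hep3B-KD. The second mean lies under the filter level, so ASNS was tested only through its Hep3B-Con level and its fall carries no weight. A fold change of 2 was reached in the lower direction by 9 genes of the list and by 2.94% of all genes, whereas no synthetase reached it. The largest falls in the list were those of DDIT4, an inhibitor of mTORC1 (-2.05), SLC7A5, a carrier of large neutral amino acids (-1.68), STC2, a secreted glycoprotein (-1.63), and PCK2, mitochondrial phosphoenolpyruvate carboxykinase (-1.46). ATF4 is controlled largely through translation, which mRNA levels do not show. Among 6 kinases and phosphatase subunits of this pathway 4 rose and 2 fell, beside 36.1% and 23.8% of all genes. Those that rose included PPP1R15B at 0.55, EIF2AK2 at 0.39 and EIF2AK4, the sensor of uncharged tRNA, at 0.23. The falls were those of EIF2AK3, the sensor of endoplasmic reticulum stress, at -0.51 and PPP1R15A at -0.29.

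A hairpin can lower transcripts other than its target through the seed of its guide, so matches to that seed were sought in 3′ UTRs. The site GCCTTCA lies opposite bases 2 to 8 of the guide strand. None of the 20 cytosolic genes holds it in the 3′ UTR used, and 2 of 15 mitochondrial genes do, as do 14.6% of the 11189 genes tested that have a 3′ UTR. Those genes are LARS2 and VARS2, the 2 mitochondrial enzymes with the largest falls, and the part of the site in their falls was not tested. RARS2 had no 3′ UTR of at least 50 bases in the annotation used.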

How the data were processed

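RNA sequencing of 6 Hep3B libraries was used, 3 of Hep3B-Con and 3 of Hep3B-KD, grouped by the sample titles. The methods name TruSeq library preparation and Illumina sequencing. FPKM values, computed and deposited by the authors, stood in 1 table of 29908 Ensembl genes, with 0 columns of other samples. The submitters' processing notes name TopHat2 2.0.12, Bowtie2 2.0.6 and the build GRCh37, with no roles. All identifiers match GENCODE release 29 (GRCh38). So do the gene lengths behind the values, since 100% of the values above 0 came out within 0.01 of a whole read. Totals were 15861039 to 17572714 reads assigned to genes per library. The depth of each value is therefore known. Counting and strand settings are not given in the sources used here. P-values measure the spread between these 3 libraries a group. Chi-square per gene between replicates was 1.80 to 3.30, so no library was counted as a repeat of another.

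The 14221 genes whose mean reached 0.5 FPKM were tested on log2(FPKM + 0.1) with limma 3.58.1 (lmFit, eBayes with a trend) in R 4.3.3 and Benjamini-Hochberg adjustment over all genes tested. For the 382 rows of repeated symbols, the row with the highest mean stood for the symbol. Pair ratios were compared with exact permutation tests in scipy 1.17.1. Promoter windows came from the RefSeq table, which held 30 of the 36 genes, and the longest 3′ UTR of protein-coding transcripts with at least 50 bases from GENCODE. In 16 alternatives the filter was dropped or set to 1 FPKM, the pseudocount set to 1 or 0.01, libraries rescaled to equal FPKM sums, centred on the median log ratio or quantile normalised, the variance trend dropped, the replicate block added, voom run on recovered reads with TMM scaling, or each library left out. Python 3.11.15, numpy 2.4.6, pandas 2.3.3 and, for figures, matplotlib 3.10.9 were used.

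The 36 genes and all lists were chosen with earlier results of these data known. By rule, values per library were given for the 8 cytosolic and 6 mitochondrial genes with the largest absolute log2 fold change, for genes that passed against the direction of their class, and for both genes of pairs described. From each further list, ATF4 and up to 4 genes with the largest change were named. Values of AARS, DARS, SARS2 and PARS2 per library were added after their values were seen. So were the names AIMP1, AIMP2, EEF1E1, EIF2AK4, PSPH, DDIT3, VLDLR, ASNS, ALB and HNF4A. One gene of a partner list is not reported here.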

Additional observations from a re-analysis of the deposited data

How the results depend on the processing

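Across the 16 alternatives, 15 of the 19 falls among cytosolic synthetases, 5 of the 7 among mitochondrial ones and the rise of HARS2 stayed past the threshold in the same direction. The count of cytosolic falls ran from 15 under quantile normalization to 20 with voom, and from 17 to 19 with each library left out. For mitochondrial falls these ranges were 6 to 9 and 6 to 7. Mitochondrial rises numbered 1 in place of 2 with median centring, with voom and with the replicate block, and 1 to 2 with a library left out. All genes called ran from 7801 to 7915 with a library left out. The 14 lower pair ratios stayed 14, except 11 under quantile normalization.

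No pairing of the samples by replicate number was visible. Deviations of same-numbered libraries correlated at -0.0134, -0.0656 and -0.00110, and those of differently numbered libraries at -0.0356 to 0.0491. With 3 libraries a group this cannot show that the samples were unpaired. With the replicate block 7919 genes passed, 18 cytosolic genes fell, RARS being lost, and the calls of CARS2 (adjusted p = 0.0584 from limma) and TARS2 (0.0593) were lost too.

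Signs turned for small changes that had not passed the test, IARS2 apart, and for the pair ratios named below, none of which can pass 0.05. The cause was not tested. With the FPKM sum rescaled, FARS2 was at 0.0194 and DARS at 0.0159. With median centring, which moves the median of all genes from 0.11 to 0.0059, GATB was at -0.0336, GATC at -0.0662, AIMP1 at -0.0358, EEF1E1 at -0.100, RARS2 at -0.0454 and TARSL2 at -0.0487. With quantile normalization GATB was at -0.160, GATC at -0.0875, IARS2 at 0.0210, EEF1E1 at -0.179, DARS at 0.0291 and TARSL2 at -0.121, and the NARS/NARS2 and VARS/VARS2 log2 ratios changed by 0.0186 and 0.0458, as did that of FARSB/FARS2, whose groups overlap, by 0.0946. With voom GATB was at -0.0307, GATC at -0.0631, AIMP1 at -0.0368, EEF1E1 at -0.0998, RARS2 at -0.0443 and TARSL2 at -0.0461. With a library left out the ranges were -0.055 to 0.018 for DARS, -0.10 to 0.070 for WARS2, -0.11 to 0.046 for FARS2, -0.052 to 0.10 for GATC and -0.11 to 0.066 for EEF1E1. At 98 to 142 reads per library PARS2 is limited by depth, and its standard error of 0.14 on the log2 scale is the largest of the 35.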
